A study of Mus musculus with 6 samples.

Results

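CC chemokine ligands are small secreted proteins that carry a pair of adjacent cysteines and attract leukocytes through G protein-coupled receptors. The members described here were Ccl2, Ccl3, Ccl4, Ccl5, Ccl7, Ccl8, Ccl9, Ccl11, Ccl12 and Ccl20. They were taken as every probe set whose gene symbol in the array's annotation is one of these 10 names, whatever its value. This gave 11 probe sets, 1 for each gene except Ccl9 with 2, among 34945 probe sets with 1 gene symbol, which stand for 18193 genes.

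RNA came from Wnt1-YL, a mouse mammary tumour cell line that was established from an invasive carcinoma of an FVB/n mouse carrying the MMTV-Wnt1 transgene, in which a mammary tumour virus promoter drives Wnt1. The shSca-1 cells carried a pLKO lentiviral short hairpin RNA against Sca-1, the product of the gene Ly6a, and the shLuc cells carried a control hairpin against luciferase. Each group had 3 arrays, and both were grown in culture in the same medium with serum, insulin and epidermal growth factor. The comparison asks how the transcripts of this cell line differ when Sca-1 is repressed. All arrays come from 1 cell line, and the labels call each array a biological replicate. Whether these were separate infections or cultures is not stated, so the p-values measure the spread between these arrays.

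The genes of this family are known to be induced by inflammatory cytokines such as interleukin-1 and tumour necrosis factor, acting largely through NF-kB and AP-1, and their transcripts are short-lived because decay factors bind them. Tumour cells as well as macrophages, fibroblasts and endothelial cells can make them. Ccl2, Ccl7, Ccl8 and Ccl12 belong to the monocyte chemoattractant group, Ccl11 is an eotaxin, Ccl3, Ccl4, Ccl5 and Ccl9 attract monocytes and lymphocytes, and Ccl20 attracts cells that carry Ccr6.

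Ly6a, the targeted gene, had intensities of 7646, 7362 and 2843 on shLuc replicates 1, 2 and 3 and of 285, 314 and 306 on the shSca-1 replicates, so the labels and the target went the same way on every array. Its log2 difference, shSca-1 minus shLuc, was -4.17 (SE 0.36, n = 3 arrays per group, limma adjusted p = 0.051). Array medians lay between 37.3 and 40.6, and a value under its array's median is called dim below, since the table holds no detection calls. shLuc replicate 3 stood apart from all other arrays. Its root mean square log2 difference from the other shLuc arrays was 1.02, over 18799 probe sets with a mean of at least 64, whereas shLuc replicates 1 and 2 differed by 0.20. Krt18, a luminal keratin, was at 7175 on shLuc replicate 3 and between 37.7 and 65.2 on the other 5 arrays, and Krt5, a basal keratin, was at 3141 against 9576 to 11431. Results are therefore given with and without this array. Replicates 1 and 2 of shSca-1 also lay close, at 0.24, and shSca-1 replicate 3 lay 0.35 to 0.38 from them.

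Of the 11 probe sets, 3 passed the study's thresholds (fold over 1.5 with p under 0.01 before adjustment), and all 3 were higher in shSca-1: Ccl2, Ccl7 and Ccl4. Over all 45037 probe sets tested, 0.500% were higher and 1.33% were lower by these thresholds. Ccl2 and Ccl7 had been singled out by the study on these same arrays, so their part in the count is not independent evidence. The study also reports quantitative PCR of Ccl2, Ccl7, Cxcl5, Mmp9, S100a8 and Sca-1 in these cells, which was not examined here. With limma and an adjusted p under 0.05, 0 of the 11 passed on 6 arrays, and so did 0% of all probe sets. At an unadjusted p under 0.05, 5 of the 11 were higher, which adds both Ccl9 probe sets, against 3.28% of all, and 0 were lower, against 5.98%. With the methods' t-test, 0 of the 11 passed after adjustment, against 0.00888% of all, which says nothing about the members. Without shLuc replicate 3, Ccl2 and Ccl7 rose past the adjusted threshold and none of the members fell, where 0.842% of all probe sets were higher and 1.92% were lower.

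The median log2 difference of the 11 probe sets was 0.70, and that of all probe sets was -0.03. Without shLuc replicate 3 it was 0.61, beside -0.04. Both medians of the 11 are the values of Ccl12, which was dim on all arrays. With the brightest probe set for each of the 10 genes the median was 0.54, and 0.30 without shLuc replicate 3. The differences were spread widely within the family: 7 probe sets were positive and 4 negative, and each of the 4 negative ones was either dim on all arrays or, for Ccl5, differed by less than its standard error. The groups did not overlap for 3 probe sets, the same Ccl2, Ccl7 and Ccl4, all higher in shSca-1. Over all probe sets 6.70% were higher without overlap and 9.81% lower.

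**Figure D1:**
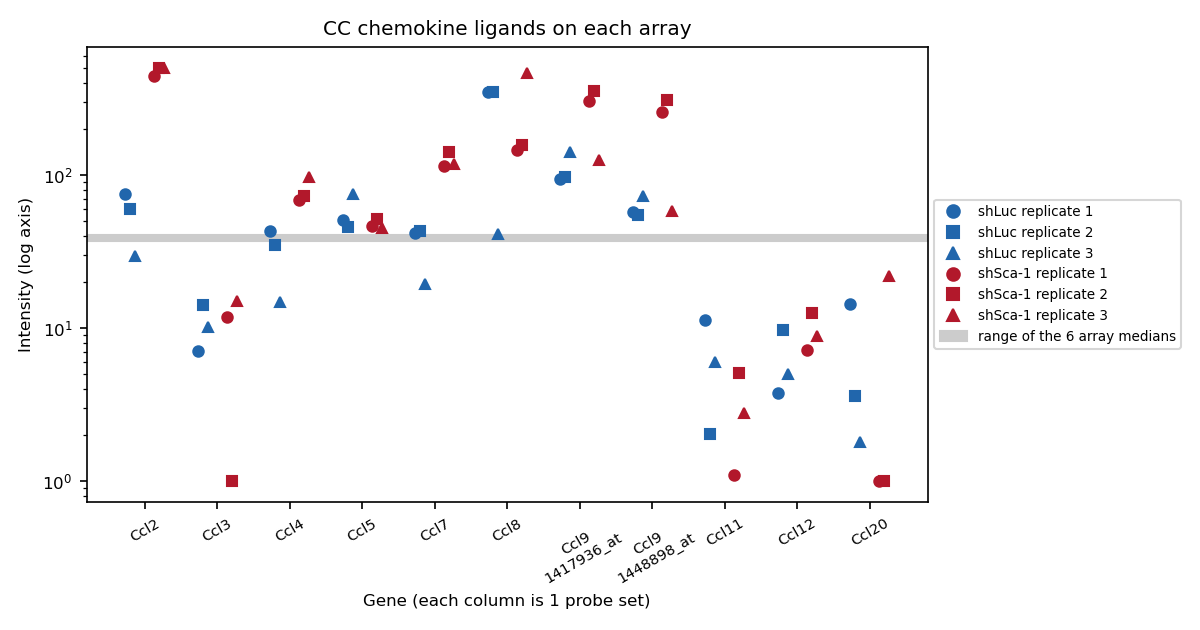
Intensity (log axis) of each CC ligand probe set on the 3 shLuc arrays (blue) and the 3 shSca-1 arrays (red), with marker shape for the replicate and a grey band for the range of the array medians, 37.3 to 40.6. The red points lie above all blue points for Ccl2, Ccl4 and Ccl7, whereas Ccl8 splits within both groups, both Ccl9 probe sets split within shSca-1 and Ccl3, Ccl11, Ccl12 and Ccl20 lie below the band.

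Ccl2, the main ligand of Ccr2 and an attractant of monocytes, had intensities of 75.3, 60.1 and 29.8 on shLuc replicates 1, 2 and 3 and of 443, 505 and 502 on shSca-1 replicates 1, 2 and 3 (probe set 1420380_at). The shSca-1 arrays were close to each other and far above every shLuc array, of which replicate 3 was the lowest and dim. The group means were 55.1 ± 23.2 and 483 ± 35.3 (SD, n = 3 each). The log2 difference was 3.23 (SE 0.33, limma adjusted p = 0.057), and an exact two-sided permutation test over the arrays gave p = 0.1, the smallest that 3 against 3 allows. Without shLuc replicate 3 it was 2.84 (SE 0.14, limma adjusted p = 7.8e-04). Setting every intensity under 64 to 64, which put shLuc replicates 2 and 3 at that floor, also gave 2.84 (SE 0.10, limma adjusted p = 0.043). With both changes together, chosen after seeing the data, the difference was 2.80 and missed the threshold (limma adjusted p = 0.065). Leaving out any other single array instead gave a limma adjusted p from 0.19 to 0.50.

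Ccl7, a ligand of Ccr1, Ccr2 and Ccr3 that likewise attracts monocytes, had intensities of 41.9, 43.2 and 19.4 on the shLuc arrays and of 115, 141 and 118 on the shSca-1 arrays (1421228_at). The groups did not overlap, and shLuc replicate 3 was again the lowest. The means were 34.8 ± 13.4 and 124 ± 14.0 (SD, n = 3 each). The log2 difference was 1.92 (SE 0.34, limma adjusted p = 0.17), and without shLuc replicate 3 it was 1.54 (SE 0.18, limma adjusted p = 0.0089). Leaving out any other single array instead gave a limma adjusted p from 0.38 to 0.68. With intensities under 64 set to 64 the difference was 0.95, because all 3 shLuc values then sat at that floor, and it was 0.95 too with shLuc replicate 3 also left out (limma adjusted p = 0.19). With the floor of 64 on 6 arrays Ccl2 and Ccl7 passed the study's thresholds and Ccl4 did not, where 0.155% of all probe sets were higher. The floor also removed spread among the shLuc values that it tied. For Ccl7 the SE was 0.34 without it and 0.09 with it, and for Ccl2 0.33 and 0.10. Passing with the floor is therefore not a stricter test for these genes.

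Ccl8, which in the mouse acts on Ccr8, split inside both groups. Its intensities were 348, 348 and 41.1 on the shLuc arrays and 146, 158 and 464 on the shSca-1 arrays (1419684_at). It was highest on shSca-1 replicate 3 and lowest on shLuc replicate 3, and the groups overlapped. The means of 246 ± 177 and 256 ± 180.0 (SD, n = 3 each) gave a log2 difference of 0.37 (SE 0.88, limma adjusted p = 0.93). The sign turned without shLuc replicate 3, to -0.66 (limma adjusted p = 0.54), and without shSca-1 replicate 3 it was -0.17. No direction can be given for Ccl8 from these arrays.

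Ccl12, another mouse ligand of Ccr2, was dim on all arrays, at 3.78, 9.71 and 5.03 in shLuc and 7.19, 12.5 and 8.84 in shSca-1. Its ranges overlapped, with a log2 difference of 0.70 (SE 0.51, limma adjusted p = 0.72). Ccl11, the eotaxin that attracts eosinophils through Ccr3, was dim as well, at 11.3, 2.03 and 5.96 in shLuc and 1.09, 5.11 and 2.77 in shSca-1. It overlapped too, with a log2 difference of -1.05 (SE 0.86, limma adjusted p = 0.76). With intensities under 64 set to 64 both differences were 0. In the RefSeq gene table for GRCm38.p6 these genes follow each other among the protein-coding genes of chromosome 11 in the order Ccl2, Ccl7, Ccl11, Ccl12, Ccl8. So the pair at one end was higher in shSca-1 on every array, the next pair was dim throughout, and the last split by replicate.

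RefSeq promoter sequences were given for 5 of the 10 members, Ccl3, Ccl8, Ccl9, Ccl12 and Ccl20. The 250 bases before the start of Ccl8 and Ccl12 are shown because these are neighbours with the same core element at almost the same place. Each reads 5′ to 3′ on its gene's strand in GRCm38.p6, from chr11:82114935-82115184 (+) for Ccl8 and chr11:82101595-82101844 (+) for Ccl12. Capitals mark the letters TATAAA, 32 to 27 bases before the start in Ccl8 and 31 to 26 in Ccl12.
Ccl8: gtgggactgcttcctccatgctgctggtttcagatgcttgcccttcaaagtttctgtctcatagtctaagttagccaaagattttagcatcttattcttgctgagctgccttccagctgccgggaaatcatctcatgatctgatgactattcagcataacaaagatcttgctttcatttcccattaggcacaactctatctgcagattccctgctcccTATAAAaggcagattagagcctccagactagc
Ccl12: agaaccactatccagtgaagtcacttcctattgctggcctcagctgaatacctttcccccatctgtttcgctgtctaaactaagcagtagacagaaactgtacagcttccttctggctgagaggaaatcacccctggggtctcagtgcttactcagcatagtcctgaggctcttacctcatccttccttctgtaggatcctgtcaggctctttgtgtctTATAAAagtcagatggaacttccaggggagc
TATAAA on either strand occurred in 12.4% of 32851 promoters of this length. Neither sequence held an NF-kB motif (GGG and CC with any 5 bases between, in 45.8% of promoters), TGANTCA (AP-1, 6.7%), TTGCNNAA (C/EBP, 9.6%) or TTCNNNGAA (STAT, 7.0%) on either strand. The letters describe the window only and show no binding.

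Ccl4, an attractant of monocytes and lymphocytes, had intensities of 43.4, 35.1 and 14.7 on the shLuc arrays and of 69.3, 73.2 and 97.5 on the shSca-1 arrays (1421578_at). Every shSca-1 value lay above every shLuc value, though 2 of the shLuc values were dim. The means were 31.1 ± 14.7 and 80.0 ± 15.2 (SD, n = 3 each). The log2 difference was 1.49 (SE 0.42, limma adjusted p = 0.35). Without shLuc replicate 3 it was 1.02 (SE 0.24, limma adjusted p = 0.07), and with intensities under 64 set to 64 it was 0.31, which no longer passed the study's thresholds.

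Ccl3, which lies beside Ccl4 in the RefSeq order, was dim on all arrays. Its intensities were 7.05, 14.2 and 10.1 in shLuc and 11.8, 1.00 and 15.0 in shSca-1. The negative log2 difference of -0.84 (SE 1.03, limma adjusted p = 0.84) rested on the single value of 1.00, since without shSca-1 replicate 2 it was 0.40. Ccl5, the T cell attractant also called RANTES, had intensities of 50.7, 45.6 and 75.1 in shLuc and 46.7, 51.7 and 45.2 in shSca-1. It was above the median on every array and the groups overlapped. The log2 difference was -0.22 (SE 0.25, limma adjusted p = 0.82), and without shLuc replicate 3 it was -0.01.

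Ccl9, a ligand of Ccr1, was measured by 2 probe sets, and both were high on the same arrays. For 1417936_at the intensities were 94.9, 97.9 and 141 on the shLuc arrays and 307, 355 and 126 on the shSca-1 arrays. For 1448898_at they were 57.7, 54.6 and 72.8 in shLuc and 260.1, 309 and 58.4 in shSca-1. In each, shSca-1 replicates 1 and 2 stood above all shLuc arrays while shSca-1 replicate 3 fell inside the shLuc range. The log2 differences were 1.13 (SE 0.40, limma adjusted p = 0.46) and 1.45 (SE 0.60, limma adjusted p = 0.53). Without shSca-1 replicate 3 they were 1.60 (limma adjusted p = 0.22) and 2.21 (limma adjusted p = 0.18), and both then passed the study's thresholds. The share of all probe sets that passed in that fit is not given here. Leaving out shSca-1 replicate 1 or 2 instead gave 0.95 and 0.85 for 1417936_at and 1.14 and 1.01 for 1448898_at, with limma adjusted p from 0.80 to 0.84 and no call.

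The promoter of Ccl9 is shown because its intensities separate shSca-1 replicates 1 and 2 from the third. It is read from chr11:83578637-83578886, on the minus strand of GRCm38.p6, with all matches to the motifs above in capitals.
Ccl9: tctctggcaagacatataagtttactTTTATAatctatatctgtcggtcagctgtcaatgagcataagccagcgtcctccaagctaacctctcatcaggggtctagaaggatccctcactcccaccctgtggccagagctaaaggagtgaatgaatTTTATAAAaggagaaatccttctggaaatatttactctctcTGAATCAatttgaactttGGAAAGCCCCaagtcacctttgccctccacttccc
TATAAA lay 92 to 87 bases before the start, overlapping its copy on the other strand at 94 to 89, with another copy on the other strand at 224 to 219. TGANTCA lay at 53 to 47, and the NF-kB motif lay at 35 to 26 on the other strand. In the Ccl20 promoter the NF-kB motif matched 4 times, all overlapping at 82 to 71 bases before the start, and the Ccl3 promoter held none of the motifs searched.

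Ccl20, the ligand of Ccr6, lies apart from the rest of the family on chromosome 1. Its intensities were 14.4, 3.59 and 1.80 on the shLuc arrays and 1.00, 1.00 and 21.8 on the shSca-1 arrays, all dim and without a common direction. The log2 difference was -0.70 (SE 1.38, limma adjusted p = 0.91), and it was 0.15 when intensities under 16 were set to 16.

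**Figure D2:**
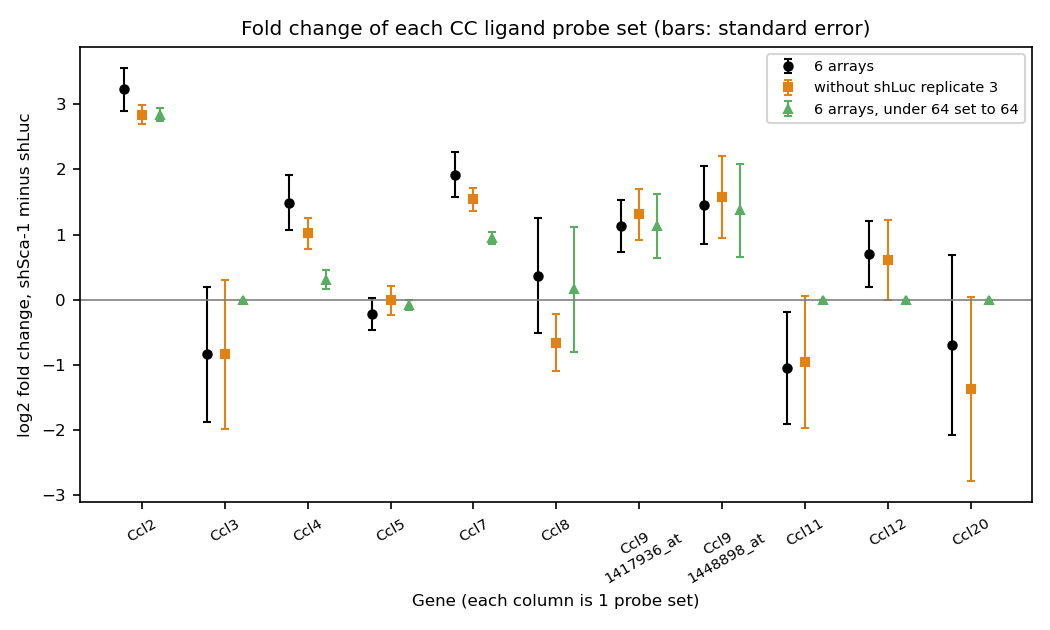
Log2 difference, shSca-1 minus shLuc, of each CC ligand probe set with its standard error, for 6 arrays (black), without shLuc replicate 3 (orange) and with intensities under 64 set to 64 (green). Ccl2 stays between 2.84 and 3.23 in all 3 settings, Ccl7 falls from 1.92 to 0.95 and Ccl4 from 1.49 to 0.31 with the floor of 64, and Ccl8 turns from 0.37 to -0.66 without shLuc replicate 3.

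The other CC ligands were mostly dim. Of 11 listed, 8 were measured and 6 of these were under 64 on all arrays. None passed the study's thresholds in either direction, and the median log2 difference was -0.04. Over all probe sets 0.500% were higher and 1.33% lower by these thresholds. A count of 0 in this or a later short list therefore says nothing about its genes. Ccl6, which lies between Ccl9 and Ccl3, was at 22.2, 23.0 and 51.0 in shLuc and 40.5, 20.3 and 16.6 in shSca-1. Of the receptors and scavengers, 13 of 14 were measured, 10 were under 64 on all arrays, and none passed, with a median of -0.11. Ccr2, the receptor of Ccl2 and Ccl7, was picked with its values known. It was between 56.9 and 58.5 in shLuc and at 74.2, 62.9 and 40.1 in shSca-1. Its log2 difference was -0.01 (SE 0.26, limma adjusted p = 0.99). Ccr7, a receptor for ligands outside the 10, had the smallest p of the list, with 15.7, 29.7 and 30.2 in shLuc and 13.0, 8.63 and 6.18 in shSca-1, all dim, and a difference of -1.45 (SE 0.44, limma adjusted p = 0.39).

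Among cytokines that induce CC ligands and their receptors, 21 of 21 were measured, and 2 passed the study's thresholds, both higher in shSca-1, with a median of 0.15 over the list. Il1a, which signals through the interleukin-1 receptor, had intensities of 113, 107 and 25.4 in shLuc and 374, 381 and 987 in shSca-1. The groups did not overlap, and the log2 difference was 2.95 (SE 0.64, limma adjusted p = 0.25). Il6, the interleukin-6 gene, was at 44.1, 23.2 and 113 in shLuc and 528, 565 and 240.2 in shSca-1, again without overlap, with a difference of 3.09 (SE 0.59, limma adjusted p = 0.20). Within shSca-1, replicate 3 was the highest for Il1a and the lowest for Il6. Without shLuc replicate 3, Il6, Il1a and Il1rap, the accessory chain of the interleukin-1 receptor, rose past the adjusted threshold and none of the list fell. Il1rap was named after its values were seen.

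Of the transcription factors and their feedback regulators, 24 of 26 were measured, with 2 higher and 1 lower by the study's thresholds and a median of 0.07. The higher ones were Nfkbia and Tnfaip3, inhibitors of NF-kB signalling that NF-kB itself induces. Tnfaip3 was at 131, 117 and 127 in shLuc and 193, 196 and 289 in shSca-1, a log2 difference of 0.83 (SE 0.19, limma adjusted p = 0.27). Nfkbia was between 2015 and 2640.1 in shLuc and between 3221 and 4846 in shSca-1, a difference of 0.68 (SE 0.18, limma adjusted p = 0.33). The lower one was Jun, a subunit of AP-1, at 1034, 950.3 and 1353 in shLuc and 582, 671 and 591 in shSca-1, with -0.84 (SE 0.15, limma adjusted p = 0.18). Jun, Fosl2, Stat3 and Irf3 fell past the adjusted threshold without shLuc replicate 3, and none of the list rose. Fosl2, another AP-1 subunit, then differed by -0.47 and Stat3 by -0.45, and Irf3 was named after its values were seen.

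None of the 10 regulators of transcript decay passed the study's thresholds, which at the shares of all probe sets above says nothing about them. Their median was 0.12. Hnrnpd, an AU-rich element binding protein, had the smallest p, with a log2 difference of 0.31 (SE 0.08, limma adjusted p = 0.33), and Zfp36l1, which promotes decay, differed by -0.32 (SE 0.11, limma adjusted p = 0.44). Of the proteases that trim chemokines and the carriers and enzymes of heparan sulfate, which holds chemokines at cell surfaces, 16 of 17 were measured, with 1 higher and 1 lower and a median of -0.07. Mmp9, a gelatinase, was at 17.9, 21.4 and 6.74 in shLuc and 347, 421 and 256 in shSca-1 (1416298_at). Its groups were far apart, with a difference of 4.61 (SE 0.45, limma adjusted p = 0.057). Sdc4, a syndecan, was at 525, 496 and 833 in shLuc and 319.5, 299.8 and 322 in shSca-1, with -0.94 (SE 0.20, limma adjusted p = 0.25). Mmp9 rose and Sdc2, Sdc3 and Sdc4 fell past the adjusted threshold without shLuc replicate 3.

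**Figure D3:**
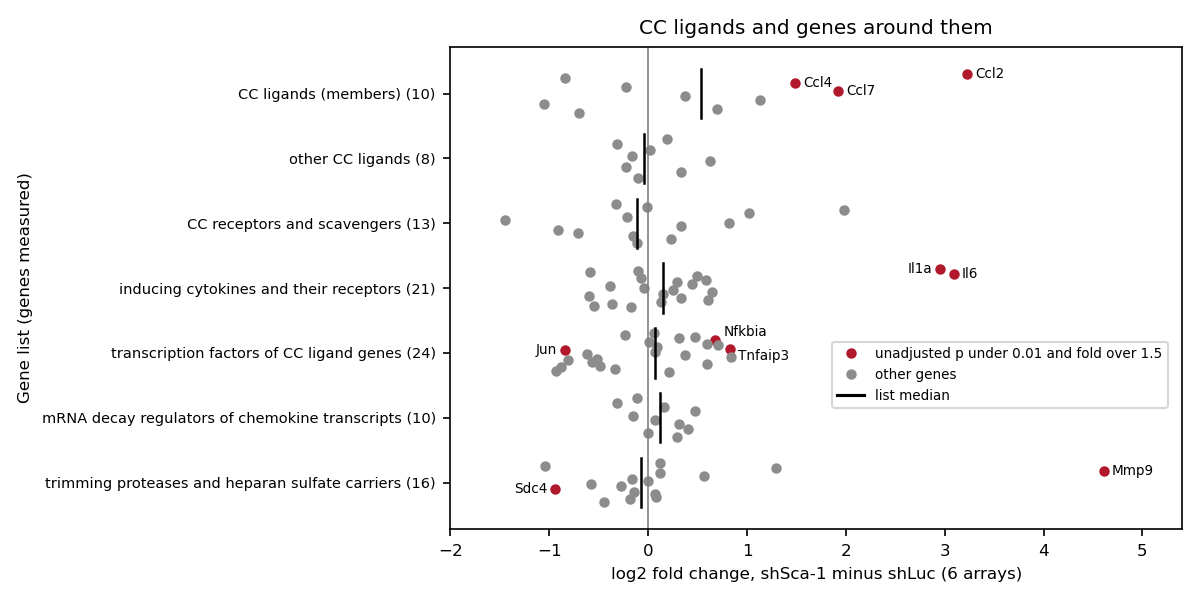
Log2 difference, shSca-1 minus shLuc on 6 arrays, of each measured gene in the CC ligand list (1 probe set per gene, the brightest) and in 6 lists around it, with a line at each list's median and, in red and named, the genes past the study's thresholds. Of the CC ligands 3 of 10 are red, Ccl2 farthest at 3.23, and Mmp9 at 4.61, Il6 at 3.09 and Il1a at 2.95 lie apart from their lists.

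Markers of cells that also make these ligands were looked at, since in bulk RNA fewer cells of a type and less RNA per cell cannot be told apart. Of 12 macrophage and monocyte markers 11 were measured, none passed the study's thresholds, and 5 were dim on all arrays. Their summed intensity was 811 to 1231 in shLuc and 622 to 805 in shSca-1. The highest sum was on shLuc replicate 3, where Cd14 alone gave 809.9 of 1231, so the sum there follows 1 marker. Single markers went both ways. Ptprc, the pan-leukocyte marker, was dim at 8.40, 3.98 and 11.6 in shLuc and 14.1, 11.8 and 20.5 in shSca-1, with every shSca-1 value above every shLuc value and a log2 difference of 1.04 (SE 0.51, limma adjusted p = 0.60). Lyz2, the lysozyme of myeloid cells, was also higher without overlap, at 46.4, 47.4 and 42.4 against 57.5, 65.5 and 61.6, by 0.44 (SE 0.19, limma adjusted p = 0.54). C1qc, a complement chain made by macrophages, was dim and lower without overlap, at 13.8, 13.8 and 9.96 against 8.72, 3.82 and 5.84, by -1.09 (SE 0.45, limma adjusted p = 0.53). The part of these markers in the Ccl2, Ccl7 and Ccl4 values was not tested. Cd14 was at 809.9 on shLuc replicate 3 and between 123 and 188 elsewhere. Cd68 was at 311, 298 and 32.9 in shLuc and 53.9, 77.6 and 212 in shSca-1, high and low on the same arrays as Ccl8. Its part in the Ccl8 values was not tested.

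Of 10 T and NK cell markers 9 were measured and 8 were dim on all arrays, with sums of 112 to 151 in shLuc and 139.6 to 172 in shSca-1. The 6 endothelial markers summed to 130.0 to 149 and 142 to 149, and Pecam1 was between 1.00 and 2.41. The 9 fibroblast markers summed to 824 to 1242 in shLuc and 540.5 to 1175 in shSca-1, with none past the study's thresholds. Single markers went both ways, with 4 of the 9 log2 differences positive and a median of -0.10. Postn, a matrix protein, was at 1015, 877 and 433 in shLuc and 672, 749 and 108 in shSca-1, by -0.94 (SE 0.75, limma adjusted p = 0.75). Col1a2 differed by -0.64 (SE 0.39, limma adjusted p = 0.67). Col1a1 was dim or near the array median and higher without overlap in shSca-1, at 17.4, 12.5 and 15.0 against 36.8, 38.8 and 18.0, by 1.00 (SE 0.38, limma adjusted p = 0.51). Thy1 was dim and likewise higher, at 6.91, 10.5 and 11.4 against 15.9, 15.0 and 30.3, by 1.04 (SE 0.42, limma adjusted p = 0.52). The part of these genes in the Ccl2, Ccl7 and Ccl4 values was not tested. Pdgfrb was at 11.2, 10.5 and 27.5 in shLuc and 157, 169.6 and 3.26 in shSca-1, so it was high on the same 2 arrays as Ccl9, and its part in the Ccl9 values was not tested. The luminal markers, of which 9 of 10 were measured, summed to 18168 on shLuc replicate 3, to 399 on the lowest shLuc array and to 444 to 470.5 in shSca-1. The 8 basal markers summed to 20073 on shLuc replicate 3, with up to 39313 on the other shLuc arrays and 33344 to 37951 in shSca-1. Krt17 was lower in shSca-1, by a log2 difference of -0.75 (SE 0.15, limma adjusted p = 0.23), and it passed the study's thresholds. Krt5 and Krt14 were higher without overlap, by 0.66 (SE 0.42, limma adjusted p = 0.69) and 0.25 (SE 0.12, limma adjusted p = 0.61), and without shLuc replicate 3 by 0.11 and 0.12. The median of the basal list was -0.11 on 6 arrays and -0.44 without shLuc replicate 3. Krt17 and Acta2 (-0.66, SE 0.12, limma adjusted p = 0.037) then fell past the adjusted threshold, and none of the list rose. The luminal sum moves with the low values of Ccl2, Ccl7, Ccl4 and Ccl8 on shLuc replicate 3, and its part in them was not tested. For Ccl2 and Ccl7 the differences without that array, 2.84 and 1.54, stand above.

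Genes were then ranked by how near their log2 profile over the 6 arrays, centred on its own mean, lay to that of a member, by root mean square difference among 17816 probe sets with 1 symbol and a mean of at least 64 in either group. The profile carries both the group difference and shLuc replicate 3, so a short distance is a description. Nearest to Ccl2 were Cxcl5 (0.27), a neutrophil attractant, Ces1g (0.33), a carboxylesterase, Saa3 (0.35), an acute phase protein, S100a8 (0.43), a calgranulin, and Mmp9 (0.52, by probe set 1448291_at). Cxcl5 had intensities of 435, 382 and 146 in shLuc and 1946, 2015 and 3337 in shSca-1. Nearest to Ccl7 were Tnfrsf9 (0.20), a costimulatory receptor, Pid1 (0.23), Rgs17 (0.26), a regulator of G protein signalling, Ntpcr (0.29) and Slc7a2 (0.30), a cationic amino acid transporter. Tnfrsf9 was at 50.9, 38.1 and 22.4 in shLuc and 161, 173 and 144 in shSca-1.

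The same ranking for Ccl4, Ccl8 and Ccl9 was added after their values were seen. Rgs17 was near Ccl4 (0.17) as well as Ccl7, behind Hsd17b7 (0.16), a sterol synthesis enzyme, and Il24 (0.18), a cytokine, came next. Nearest to Ccl8 were Sbsn (0.11), an epidermal protein, C1s1 (0.16), a complement protease, Mmp10 (0.17), a stromelysin, Adh7 (0.18), an alcohol dehydrogenase, and Vldlr (0.19), a lipoprotein receptor. Sbsn was at 208, 224 and 23.2 in shLuc and 86.5, 103 and 241 in shSca-1, which is the order of the Ccl8 arrays with both groups overlapping. Nearest to Ccl9 by 1417936_at was Lox (0.09), the lysyl oxidase that crosslinks collagen, at 191, 208 and 266 in shLuc and 622, 630.4 and 229 in shSca-1. Lox was also nearest by 1448898_at (0.36). Tgfb2, a growth factor, and Rflnb were among the nearest 5 for both Ccl9 probe sets.

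**Figure D4:**
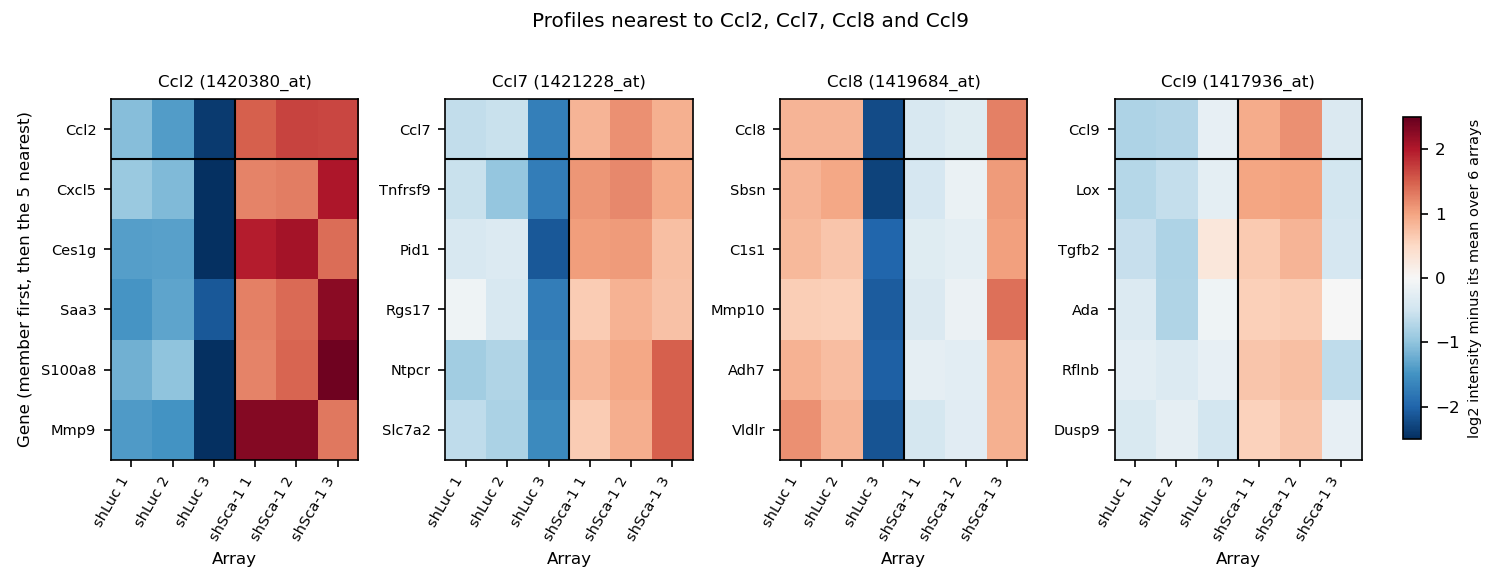
Heat maps of log2 intensity minus its mean over the 6 arrays (colour scale ending at -2.5 and 2.5) for Ccl2, Ccl7, Ccl8 and Ccl9 (1417936_at), each above the 5 genes with the nearest profile, with 1 column per array and a line between shLuc and shSca-1. Ccl2 and Ccl7 and their nearest genes are higher on all 3 shSca-1 arrays, Ccl8 and its nearest genes are lowest on shLuc replicate 3 and high on shSca-1 replicate 3, and Ccl9 is high on shSca-1 replicates 1 and 2.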

How the data were processed

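Total RNA of 3 shLuc and 3 shSca-1 samples was hybridized to 1 Affymetrix mouse array each. The authors computed the deposited intensities with dChip (PM-MM model, invariant set normalization). They are linear, and 1.12% are exactly 1. The version of dChip and the genome build are not given in the sources used here. The number of arrays limits the precision.

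Of 45101 probe sets, 64 controls were left out. Of the other 45037, 34945 had 1 gene symbol in the platform annotation, 932 several and 9160 none. Symbols were checked against RefSeq and 0 changed. Ly6a has no symbol there and was found through the study's probe list. Outside the members, the brightest probe set stands for each gene.

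Intensities below 1 were raised to 1 before taking log2. The main test was limma 3.58.1 under R 4.3.3 (lmFit, eBayes with trend, no replicate block), with Benjamini-Hochberg adjustment over all 45037 probe sets. The study's thresholds were applied to the same limma values. The fit was tested on simulated data. Tables and figures were made with Python 3.11.15, pandas 2.3.3 and numpy 2.4.6. Same-numbered replicates did not deviate together (r of -0.04, -0.02 and -0.03). The labels do not say whether the numbers pair the arrays, and with shLuc replicate 3 so far apart these r cannot settle it. There were 15 alternatives, and 2 others were added after seeing the data.

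The members and lists were chosen with earlier results of these data known. Named genes were all members, Ly6a, up to 4 genes per list by smallest p on 6 arrays and up to 2 without shLuc replicate 3, for markers up to 4 by level, and the 5 profiles nearest to Ccl2 and to Ccl7. Others are named where a count required it, or with a statement that their values were known.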

Additional observations from a re-analysis of the deposited data

How the results depend on the processing

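Every alternative kept the sign of Ccl2, Ccl7, Ccl4 and both Ccl9 probe sets, from 2.80 to 3.51, 0.95 to 2.12, 0.31 to 1.80, 0.81 to 1.60 and 1.01 to 2.21 on the log2 scale. The limma adjusted p of Ccl2 ranged from 7.8e-04 to 0.90 and that of Ccl7 from 0.0089 to 0.90. The lowest was without shLuc replicate 3 for both, and the highest was with replicates 1 and 2 averaged. The count of members higher at an adjusted p under 0.05, 0 on 6 arrays, was 1 (Ccl2) with centring on the array median, with intensities under 64 set to 64, without probe sets under the 40 percentile of level (which left 7 of the 11) and with robust variance, and 0 to 2 with 1 array left out, 2 being without shLuc replicate 3. Ccl4 did not pass the study's thresholds, leaving 2, with floors of 16 or 64, no trend, the methods' t-test, the replicate block, or without shLuc replicate 2, shSca-1 replicate 1 or shSca-1 replicate 2. Averaging replicates 1 and 2 of each group, added after seeing the data, also left 2. Without shSca-1 replicate 3, Ccl2, Ccl7 and both Ccl9 probe sets passed, and Ccl4 did not. For most alternatives in this section the share over all probe sets is not given. These counts alone therefore do not show whether calls changed more among the named genes than elsewhere.

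With the replicate block the log2 difference of Ccl2 was 3.23 (limma adjusted p = 0.34), and 2 members, Ccl2 and Ccl7, passed the study's thresholds. Beside Ccl4 the block changed no other member's call by these thresholds or at an adjusted p under 0.05. The unadjusted limma p of Ccl9 by 1448898_at went from 0.046 to 0.052. Whether a shared number pairs the arrays is not stated.

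With 1 array left out, Ccl3 ranged from -1.55 to 0.40, Ccl8 from -0.66 to 0.88 and Ccl20 from -2.18 to 0.14. Ccl8 was -0.66 with shLuc replicate 3 left out and a floor of 64, and Ccl20 was 0.15 with a floor of 16 and 0.37 with replicates 1 and 2 averaged. The cause was not tested. Other pathway genes higher by the study's thresholds, 5 on 6 arrays, were 3 with a floor of 16, 3 with a floor of 64, 1 with the methods' t-test, 2 with replicates 1 and 2 averaged and 3 to 5 with 1 array left out. Those lower, 2 on 6 arrays, were 1 with a floor of 64, 1 with the t-test, 1 with averaging and 2 to 6 with 1 array left out, 6 being without shLuc replicate 3. At an adjusted p under 0.05, 1 was higher with centring, a floor of 16, the 40 percentile filter or robust variance, and with 1 array left out 0 to 4 were higher and 0 to 7 lower, the highest counts being without shLuc replicate 3. Dim intensities limit Ccl3, Ccl11, Ccl12 and Ccl20.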

Other observations

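Trp63, the gene of the basal transcription factor p63, had intensities of 2950.2, 2869.7 and 939 in shLuc and 1531, 1464 and 2898 in shSca-1, so it was high and low on the same arrays as Ccl8. Its values were known when it was picked. The ratio of the Ccl9 probe sets, 1417936_at over 1448898_at, was 1.64, 1.80 and 1.93 in shLuc and 1.18, 1.15 and 2.16 in shSca-1, so it was lowest on the arrays where both were high. Mmp3, a stromelysin that can trim monocyte chemoattractants and that was likewise picked with its values known, was at 1031, 982 and 31.1 in shLuc and 438, 474 and 2229 in shSca-1, also in the order of the Ccl8 arrays.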
